A study of Mus musculus with 2 samples.

Results

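The genes described here are the Rab GTPases and the vesicle fusion genes of Apc mutant mouse intestinal organoids. They were chosen by symbol alone: Rab followed by digits and at most 1 further letter, or a symbol that begins with Syt, Sytl, Stx, Vamp or Snap and a digit. The rule found 90 of the 13373 genes of the deposited table. Of these, 86 had a UMI (a counted RNA molecule) in at least 1% of the 2209 cells and were compared, and 4 (Rab7b, Rab37, Syt8 and Syt9) fell under that limit. Rab39b and Syt13 were listed at 0 in every cell of the DMSO library, so 84 members had a value for the difference between the libraries.

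The series compared 2 single-cell RNA libraries of intestinal organoids, which are small cultures grown from gut epithelium. Their Apc gene, a brake on Wnt signalling that is lost in most intestinal tumours, was mutant, and the strain was C57Bl at an age of 3 to 4 months. By title, 1 library was treated with DBZ, a gamma-secretase inhibitor that blocks the release of active Notch, and the other with the vehicle DMSO. The protocol text shared by both samples lists 4-OH-tam at 300 nM and DBZ at 10 uM, and the titles were followed. The labels do not name a Cre, the Apc allele or the number of animals. The comparison addresses how these organoid cells differ between inhibitor and vehicle. With 1 library per group no difference has a replicate check, no test between treatments was made, and each statement is about these libraries. Intervals cover counting error only, and cells of 1 library are not replicates.

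Rab proteins are small GTPases, each marking a membrane such as the Golgi, an early endosome or a secretory granule, and they recruit the motors and tethers that move vesicles there. Fusion is carried out by SNARE proteins: a vesicle SNARE of the VAMP family pairs with syntaxins and Snap25 relatives on the target membrane. Synaptotagmins bind calcium or phospholipids and time fusion, and synaptotagmin-like proteins link granule Rabs to the plasma membrane. In the gut, hormone cells release peptides and serotonin from dense granules, and Paneth cells release defensins, antimicrobial peptides, from large apical granules.

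The DBZ library held 1241 cells and the DMSO library 968, against 3000 aimed at per sample. Median depth was 10901 UMIs per cell with DBZ and 11183 with DMSO, and the libraries shared 3 cell barcodes. Values are given as a level, the mean number of UMIs per 10000 UMIs of a cell, and differences as log2 of the ratio of levels after adding 0.05 to each. Cells with Chga plus Chgb (granins of hormone granules) at or above 10 per 10000 were called hormone cells: 42 with DBZ and 13 with DMSO. Cells with all Defa genes together at or above 100 per 10000 were called defensin cells: 208 with DBZ and 30 with DMSO. Cells past both limits (27 and 3) stayed out, and 964 and 922 cells past neither were called other cells. Each class is a range of a score and not a cell type: 97 DBZ and 18 DMSO cells had a granin sum of 5 to 20, and 53 and 7 a defensin sum of 50 to 200. Median depth was 8158 and 7427 UMIs in hormone cells, 12034.5 and 16441.5 in defensin cells, and 10898 and 11183 in other cells, for DBZ and DMSO in that order.

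By summed level, markers that the limits did not use separated the hormone cells more clearly than Paneth genes separated the defensin cells. Of 25 other hormone cell genes, 23 were in the table, and their summed level averaged 251 (DBZ) and 277 (DMSO) in hormone cells against 8.50 and 1.44 in other cells, although 1 DBZ cell of the other class reached 3475. Of 9 Paneth genes besides defensins, 6 were in the table, with mean sums of 71.5 and 63.7 in defensin cells against 27.04 and 23.9 in other cells (medians 18.8 and 22.2 against 17.2 and 10.4). Of these genes, Ang4 (11.2 and 12.7 against 0.137 and 0.0316) and Mmp7 (10.4 and 13.8 against 1.99 and 1.05) differed sharply. Itln1, the largest part of the sum, stood at 41.5 and 30.9 against 12.1 and 14.8. Cd24a, Mptx1 and Mptx2 were not higher in defensin cells of either library. The sum of goblet cell genes (7 of 10 in the table) was also high in defensin cells, with means of 101 and 109 against 4.06 and 0.438 (medians 11.3 and 19.6 against 1.63 and 0). It came mostly from Tff3 (67.7 and 47.8) and Spink4 (29.4 and 60.5). Muc2, Spdef and Atoh1 were at most 0.122 in DBZ defensin cells, against at most 0.0184 in DBZ other cells, and listed at 0 in the DMSO library. Of the lists for cells outside the epithelium, 0 of 5 fibroblast, 2 of 7 immune and 1 of 4 endothelial genes were in the table, and the last 2 lists had mean sums of at most 0.181 per 10000 over the cells of a library. Neuron and glia genes (3 of 6 in the table) had mean sums of 1.02 and 0.762 in hormone cells and 0.586 and 0.242 in defensin cells against 0.113 and 0.0130 in other cells, mostly from Elavl4, and their part in the class differences was not tested.

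Of the 90 members, 21 were seen in at least 50% of all cells and 48 in fewer than 20%. The most abundant were genes of the general secretory and endocytic routes. A UMI counts a molecule whatever the length of its gene, though capture may differ between genes. Rab11a, which carries recycling vesicles to the apical surface, had the highest level of all members, at 2.71 with DBZ and 2.51 with DMSO. Rab2a, which acts between endoplasmic reticulum and Golgi, stood at 2.22 and 2.03, and Rab14, of Golgi and endosome transport, at 2.13 and 2.05. Rab25, an epithelial relative of Rab11a, stood at 1.81 and 2.20, and Vamp8, the vesicle SNARE of granule release in exocrine cells, at 1.89 and 1.52. Rab11a, Rab2a, Rab25 and Vamp8 were seen in over 80% of the cells of each library. The most abundant members of other roles were lower: Stx7, a late endosomal syntaxin, at 1.12 and 0.833, Rab3d, a Rab of secretory granules, at 0.752 and 0.563, Syt11 at 0.601 and 0.235, Stx4a, a plasma membrane syntaxin, at 0.556 and 0.614, and Snap47 at 0.349 and 0.262. Rab28, the most abundant of the Rabs placed in no other role, averaged 0.596 over all cells of both libraries. The summed level of all 90 members averaged 40.9 per 10000 in DBZ cells and 36.6 in DMSO cells. By class that sum was 48.6 and 57.8 in hormone cells, 36.5 and 32.7 in defensin cells, and 41.2 and 36.3 in other cells.

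Between the libraries, a small number of members stood higher with DBZ and none passed the limit in the other direction. Of 84 members, 11 were higher with DBZ by at least 0.5 on the log2 scale (13.1%, against 11.1% of all 12224 genes) and 0 were lower by as much (against 5.35% of all genes). The median difference was 0.12 for the members and 0.0959 for all genes. After thinning every cell to 5000 UMIs the members higher with DBZ were 17 (20.2%, against 12.7% of all genes), and again 0 were lower. Synaptotagmins held 3 of the 11 (of 7 compared), endosome and recycling Rabs 3 of 16, and granule Rabs, synaptotagmin-like proteins, plasma membrane syntaxins, inner membrane syntaxins and the Snap25 relatives 1 each. None of the 14 Rabs of endoplasmic reticulum and Golgi, 8 Rabs of polarized transport, 6 other Rabs and 7 VAMPs passed.

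**Figure D1:**
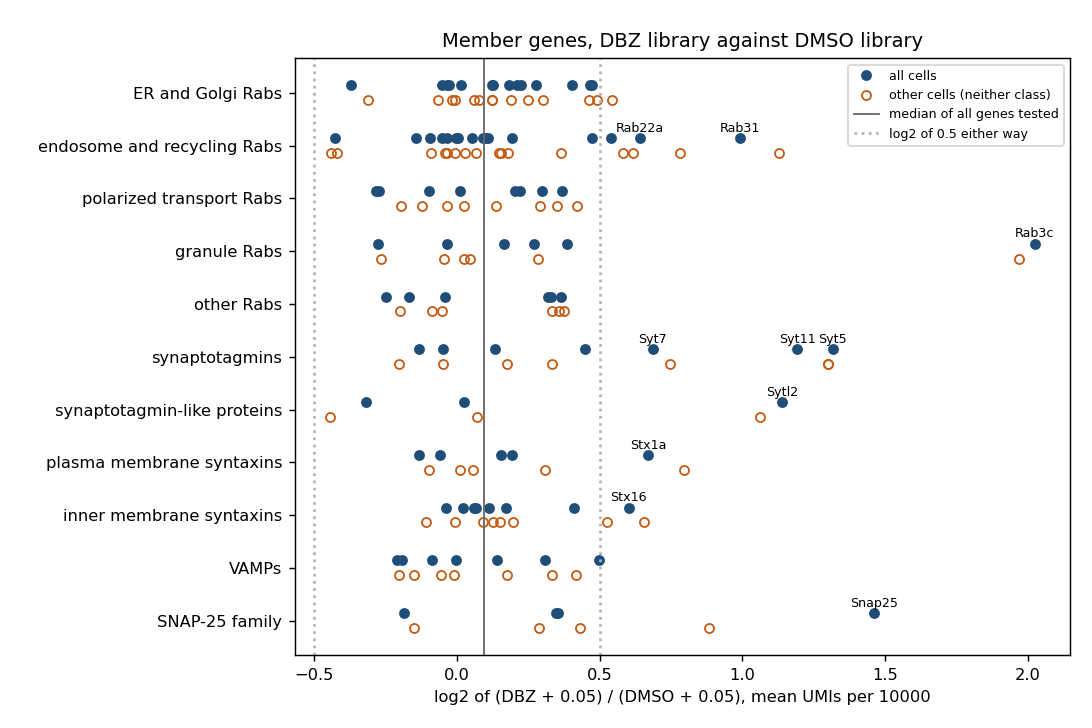
Difference between the DBZ and the DMSO library for 84 member genes, on the log2 scale (x axis), in rows by role; filled points are all cells, open points cells of neither class, and the solid line is the median of all genes tested. Rab3c at 2.03 lies farthest to the right, and no filled point lies left of the dotted line at -0.5.

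Rab3c showed the largest difference of the 84. This Rab, known from synaptic vesicles and neuroendocrine granules, had a level of 0.856 with DBZ and 0.173 with DMSO, a log2 difference of 2.03. The libraries held 1067 and 153 of its UMIs, and the log2 ratio of pooled UMIs was 2.50 (95% interval 2.25 to 2.75). It was seen in 31.3% of DBZ cells (Clopper-Pearson 95% interval 28.8 to 34.0) and 5.48% of DMSO cells (4.13 to 7.10), or 21.8% and 3.82% after thinning. In other cells alone its level was 0.522 with DBZ and 0.0960 with DMSO, a log2 difference of 1.97, so the difference was nearly as large outside both classes. The 5 highest cells held 32.1% of its summed level in the DMSO library and 6.82% in the DBZ library. Its close relatives differed less: Rab3d by 0.39 and Rab3a, the best known synaptic Rab, by 0.17.

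Several synaptotagmins were also higher with DBZ. Syt5, a calcium sensor of dense granules, had a level of 0.274 with DBZ and 0.0800 with DMSO (388 and 83 UMIs), a log2 difference of 1.32 in all cells and 1.30 in other cells. Syt11, a synaptotagmin without calcium binding that acts in vesicle traffic, had 0.601 and 0.235 (932 and 265 UMIs), a difference of 1.19, and 1.30 in other cells. Both genes were thus higher with DBZ to a like degree in cells of neither class, and other cells supplied 80.4% of the Syt11 level and 71.7% of the Syt5 level in the DBZ library. Syt7, a slow calcium sensor of granule and lysosome release, stood at 0.0893 and 0.0367 with 123 and 40 UMIs, a difference of 0.69. Sytl2, which links Rab27 granules to the plasma membrane, stood at 0.183 and 0.0557 with 277 and 68 UMIs, a difference of 1.14. For these 4 genes the 95% intervals of the pooled log2 ratio were 1.57 to 2.28 (Syt5), 1.31 to 1.71 (Syt11), 0.79 to 1.87 (Syt7) and 1.33 to 2.13 (Sytl2), all above 0.

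Snap25 differed by 1.46, with levels of 0.219 and 0.0477. This plasma membrane SNARE of neurons and endocrine cells had 267 and 42 UMIs and was seen in 12.4% of DBZ and 2.48% of DMSO cells (7.41% and 1.86% after thinning). Unlike Rab3c it came from few cells. In the DBZ library, hormone cells supplied 24.9% of its summed level, defensin cells 28.9%, cells past both limits 21.4% and other cells 24.8%, and in the DMSO library the 5 highest cells held 45.2%. Within other cells its difference was 0.88, and over all cells without a Chga or Chgb UMI it was 0.48, under the limit (0.15 over other cells without one). Its widespread relative Snap23, which serves fusion in most cells, stood at 0.262 with DBZ and 0.304 with DMSO, and its interval of the pooled log2 ratio ran from -0.35 to 0.05.

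The other members past the limit act in endosomes, the Golgi or at the plasma membrane. Rab31, a Rab of transport between Golgi and endosomes, had 0.121 with DBZ and 0.0360 with DMSO, a difference of 0.99 (1.13 in other cells). Stx1a, the syntaxin that pairs with Snap25 in regulated release, had 0.316 and 0.180, a difference of 0.67 (0.79 in other cells). Rab22a, of endosome sorting, had 0.853 and 0.529, a difference of 0.64. Each of these 3 was higher with DBZ in other cells as well as in all cells. Stx16, a syntaxin of the trans-Golgi network, differed by 0.60 (0.891 and 0.570), and Rab5b, of early endosomes, by 0.54 (0.439 and 0.287). Vamp2, the vesicle SNARE of regulated release, stood just under the limit at 0.50 (0.565 and 0.385). In other cells 14 members passed the limit (16.7%, against 12.2% of all genes) and again 0 were lower (against 5.02%). Rab21 at 0.58, Rab43 at 0.54 and Stx7 at 0.53 passed there and not over all cells.

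The members that stood lowest with DBZ differed little. Among members seen in at least 10% of cells, Rab9, of transport from late endosomes to the Golgi, had 0.307 with DBZ and 0.430 with DMSO, a difference of -0.43. Rab6a, of Golgi transport, had 1.45 and 1.89, a difference of -0.37. The 95% intervals of the pooled log2 ratio lay below 0 for both, at -0.77 to -0.42 and -0.42 to -0.26. Next were Rab17 and Rab27b (both -0.28), Rab25 (-0.27), Vamp4 (-0.21), Vamp3 (-0.19) and Snap23 (-0.19). Rab27b, like Rab27a a Rab of granule docking, had levels of 0.120 and 0.156. Rab27a had 0.0369 and 0.0220 with 51 and 31 UMIs, Rab26, of granule maturation, had 14 and 13 UMIs, and Sytl4, a Rab27 partner on endocrine granules, had 23 and 20 UMIs, so differences of these 3 were not detectable at this depth.

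Members listed at 0 in a library have no fold. Rab39b had 72 UMIs and Syt13, a synaptotagmin without calcium binding, 62 UMIs in the DBZ library, and both were listed at 0 in the DMSO library. The same held for Rab7b (20 UMIs), Syt9 (15) and Rab37 (11), while Syt8 had 17 UMIs in the DMSO library and was listed at 0 with DBZ. In all, 723 genes were listed at 0 in the DMSO library and 282 in the DBZ library, while genes with a UMI in only 1 cell numbered 0 in each, so a listed 0 is read as no upper limit.

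Hormone cells had high levels of Snap25, Rab3c and several of their relatives and partners. In the DBZ library 9 of 86 members were higher in hormone than in other cells by at least 1 on the log2 scale (10.5%, against 7% of all 12387 genes), and 2 were lower (2.33%, against 7.39%). In the DMSO library, with 13 hormone cells, 22 of 84 were higher (26.2%, against 17% of 12235 genes) and 8 lower (9.52%, against 16.5%). Past the limit in both libraries were 8 members, or 9.52% of 84, against 4.1% of all genes: Snap25, Rab3c, Rab4a, Syt7, Rab3d, Vamp2, Rab3a and Rab4b. The median over members was 0.05 with DBZ and 0.43 with DMSO, against -0.03 and -0.02 for all genes. In the DMSO library 17 of 84 members had 0 UMIs in hormone cells, and with such genes set to 3 UMIs per class the medians were 0.82 for members and 0.65 for all genes. Of the 8 members lower there, 6 had 0 UMIs, and 2 stayed past the limit at that setting. In the DBZ library 1 of the 2 lower members had 0 UMIs.

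**Figure D2:**
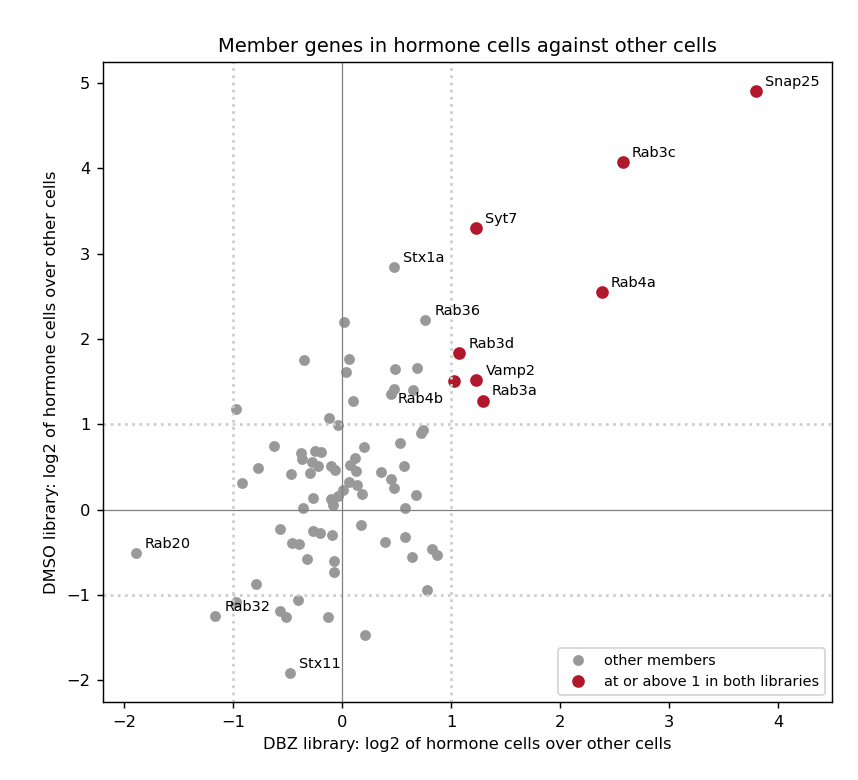
Hormone against other cells for the 84 members with a value in both libraries, as log2 of the ratio of levels in the DBZ library (x axis) and the DMSO library (y axis); dotted lines mark 1 and -1. The 8 red members lie past 1 in both libraries, with Snap25 and Rab3c farthest out.

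Snap25 separated hormone cells most sharply. Its level in hormone cells was 1.61 with DBZ and 1.89 with DMSO, against 0.0700 and 0.0151 in other cells. It was seen in 69.0% of DBZ hormone cells (95% interval 52.9 to 82.4) and 76.9% of DMSO hormone cells (46.2 to 94.96), against 5.29% and 0.868% of other cells. After thinning the shares were 45.2% and 69.2% against 3.11% and 0.434%. The log2 differences were 3.79 and 4.90, so both libraries placed it first among the 84 members.

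Rab3c had 3.35 and 2.40 in hormone cells against 0.522 and 0.0960 in other cells, log2 differences of 2.57 (DBZ) and 4.07 (DMSO). The shares of hormone cells with its UMI were alike, 76.2% and 76.9%, while those of other cells were 23.9% and 2.71% (15.1% and 2.06% after thinning). The part of free RNA in the shares of other cells was not tested. Rab3d, the paralog common in exocrine granules, had 1.42 and 1.99 in hormone cells against 0.649 and 0.523, differences of 1.07 and 1.83. Rab3a had 0.228 and 0.235 against 0.0637 and 0.0675 in other cells, on only 9 and 2 hormone cell UMIs.

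For members with a RefSeq promoter entry (71 of 90), the 250 bases before the RefSeq gene start were searched on both strands for the E-boxes CAGATG and CAGCTG, for the E-box CACGTG, and for TGACGTCA, a cyclic AMP response element. The promoters of Rab3c, its relative Rab3d and Stx1a are shown because Rab3c and Rab3d were higher in hormone cells of both libraries, and Stx1a, past the limit in the DMSO library alone, holds the same E-box as Rab3c. They are written 5′ to 3′ in the direction of the gene, from RefSeq GRCm38.p6, with a match in capitals. Rab3c lies on the minus strand at chr13:110280207-110280456, Rab3d on the minus strand at chr9:21918184-21918433 and Stx1a on the plus strand at chr5:135023232-135023481. By GENCODE M21 the Rab3c gene spans chr13:110054187-110280996, so its window, placed by the RefSeq start, lies inside the gene in that annotation.
Rab3c: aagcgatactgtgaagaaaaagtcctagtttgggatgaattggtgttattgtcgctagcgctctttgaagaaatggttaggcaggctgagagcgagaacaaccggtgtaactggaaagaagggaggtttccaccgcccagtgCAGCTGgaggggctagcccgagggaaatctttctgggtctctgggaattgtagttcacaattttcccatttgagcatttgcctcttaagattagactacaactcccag
Rab3d: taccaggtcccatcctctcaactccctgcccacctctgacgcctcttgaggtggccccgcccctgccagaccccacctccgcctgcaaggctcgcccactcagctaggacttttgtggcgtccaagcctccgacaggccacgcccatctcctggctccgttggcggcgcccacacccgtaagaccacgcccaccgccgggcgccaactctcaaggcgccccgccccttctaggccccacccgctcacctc
Stx1a: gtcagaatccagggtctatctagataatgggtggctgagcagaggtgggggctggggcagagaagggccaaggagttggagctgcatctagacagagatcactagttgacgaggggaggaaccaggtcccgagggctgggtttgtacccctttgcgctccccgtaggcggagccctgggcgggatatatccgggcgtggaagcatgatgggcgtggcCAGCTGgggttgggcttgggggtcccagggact
Rab3c and Stx1a each held 1 CAGCTG, and Rab3d none of the 4 sequences. Stx1a was chosen for its match, so the shared E-box follows from the choice. Snap23 and Syt11, searched in the same way and not shown, also held none of the 4. CAGCTG was found in 16.7% of the 90 promoters listed for members and in 11.9% of the 12785 promoters of genes in the table, CAGATG in 7.78% and 9.72%, CACGTG in 8.89% and 8.11%, and TGACGTCA in 2.22% and 2.64%. A match describes these letters only.

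The other fusion genes of hormone cells were less abundant. Rab4a, of rapid endosome recycling (in the annotation at chr8:123805985-123835287, plus strand), had 0.398 with DBZ and 0.634 with DMSO in hormone cells against 0.0361 and 0.0669 in other cells, differences of 2.38 and 2.55. Its relative Rab4b had 0.210 and 0.323 against 0.0775 and 0.0814. Vamp2 had 1.25 and 1.13 against 0.502 and 0.364, differences of 1.23 and 1.52. These 3 genes were higher in hormone cells by similar amounts in both libraries, although Rab4a rested on 12 and 6 hormone cell UMIs. For Rab4b the intervals of the pooled log2 ratio were wide, at 0.51 to 2.67 with DBZ and 0.43 to 3.73 with DMSO. Without the highest cell of each gene, Rab4b was not past the limit in both libraries.

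Syt7 and Stx1a differed between the libraries. Syt7 had 0.242 with DBZ and 0.680 with DMSO in hormone cells, from 7 UMIs each, against 0.0747 and 0.0243 in other cells, differences of 1.23 and 3.29. Stx1a had 0.444 and 1.42, from 15 UMIs each, against 0.306 and 0.155, differences of 0.47 and 2.84. Stx1a was therefore past the limit in the DMSO library alone, and the difference between the libraries was not tested. Syt13 was seen in 19.0% of DBZ hormone cells (95% interval 8.60 to 34.1) and 0.519% of DBZ other cells, with levels of 0.525 and 0.00462 and a difference of 3.39, and it was listed at 0 in the DMSO library. Syt11 and Sytl2 had differences of 0.03 and 0.48 with DBZ and of 1.61 and 1.65 with DMSO, on 9 and 2 UMIs in the latter. Rab36, of the Rabs of endoplasmic reticulum and Golgi, differed by 0.76 with DBZ and 2.22 with DMSO. It was seen in 7.69% of DMSO hormone cells (95% interval 0.195 to 36).

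In this contrast more Rabs of general routes passed the limit in the DMSO library, as did more of all genes (17%, against 7% with DBZ). Of Rabs of endoplasmic reticulum and Golgi, 0 of 15 were higher in hormone cells with DBZ and 4 of 14 with DMSO, and of endosome and recycling Rabs 2 of 16 and 5 of 16. Inner membrane syntaxins had 0 of 8 in each library. Snap23 had 0.207 and 0.190 in hormone cells against 0.272 and 0.307 in other cells, Stx3, the apical syntaxin of gut epithelium, 0.464 and 0.932 against 0.562 and 0.558, and Vamp8 2.02 and 2.20 against 1.93 and 1.52. Rab25 was lower in hormone cells, with 1.34 and 0.902 against 1.94 and 2.23, differences of -0.52 and -1.26. The lowest mean differences belonged to Rab32, a Rab of lysosome-related organelles, Rab20, of endosome and phagosome traffic, Stx11, a syntaxin of immune granules, and Rab43, of the Golgi. Rab32 had 0 UMIs in hormone cells of both libraries and was the only member lower past the limit in both (1.19%, against 3.71% of all genes). At that depth 0 UMIs allow up to 0.0814 per 10000 with DBZ and 0.291 with DMSO, above its 0.0621 and 0.0690 in other cells, so a difference was not detectable. Stx11 and Rab43 had 0 UMIs in DMSO hormone cells, against 0.138 and 0.0555 in other cells. These levels also lie under 0.291, so no difference was detectable there. Rab20 had 0.0258 and 0.104 against 0.232 and 0.169, from 1 hormone cell UMI in each library.

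**Figure D3:**
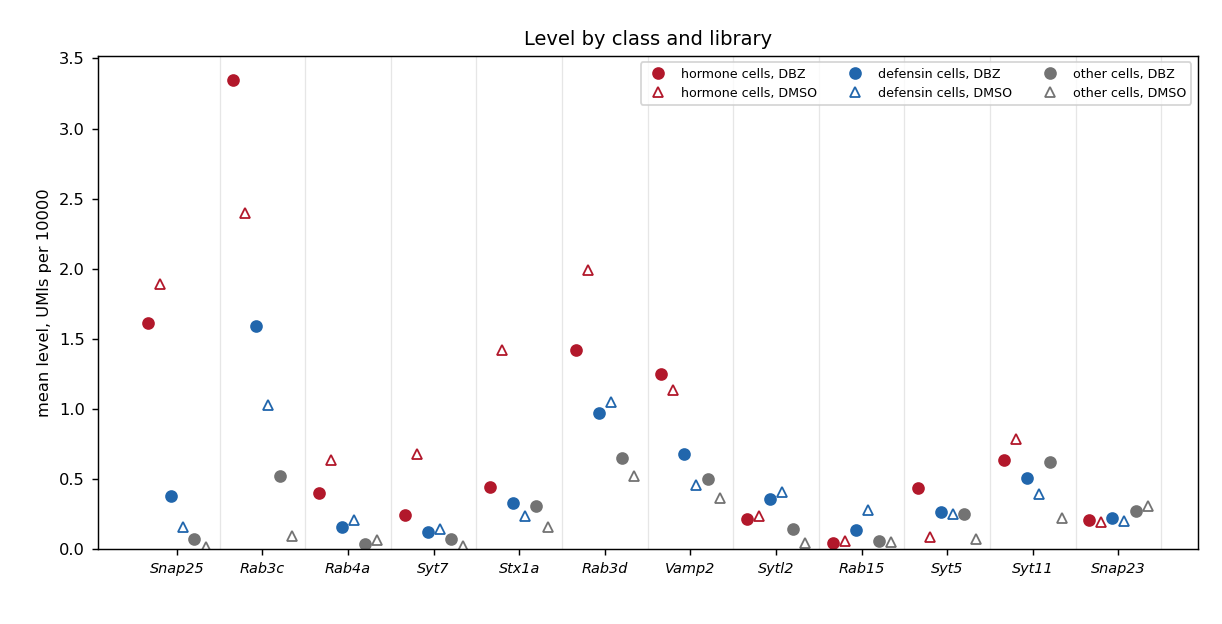
Mean level (y axis, UMIs per 10000) of 12 members in hormone, defensin and other cells; filled circles are the DBZ library and open triangles the DMSO library. Snap25 and Rab3c are highest in hormone cells, lower in defensin cells and lowest in other cells of each library, whereas Snap23 lies between 0.190 and 0.307 throughout.

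Neurog3, the transcription factor of hormone cell precursors, split the classes further. Of hormone cells, 8 with DBZ and 1 with DMSO had a Neurog3 UMI, and of other cells 20 and 10. In the other cells with a Neurog3 UMI, the Rab3c level was 1.41 with DBZ and 2.60 with DMSO, against 0.503 and 0.0686 in other cells without one. The Snap25 level there was 0.153 and 0.218, from 3 and 2 UMIs, against 0.0682 and 0.0128. In DBZ hormone cells with a Neurog3 UMI, Rab3c was at 2.01 against 3.66 in those without, and Syt13 at 1.29 against 0.346 (9 and 8 UMIs). Rab3c was thus higher in the few other cells with a Neurog3 UMI than in those without one. These 10 DMSO cells held 22 of the 80 Rab3c UMIs of DMSO other cells.

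Defensin cells also had higher levels of Snap25, Rab3c and Rab4a than other cells, as hormone cells did. In the DBZ library 5 of 86 members were higher in defensin than in other cells by at least 1 (5.81%, against 1.7% of all genes) and 2 lower (2.33%, against 1.61%). In the DMSO library 9 of 84 were higher (10.7%, against 2.7%) and 3 lower (3.57%, against 7.13%). Higher in both were Snap25, Rab3c, Rab4a and Sytl2, 4.76% of members against 1.06% of all genes, and 0 members were lower in both (against 0.663%). The median difference was -0.15 and -0.10 for members and -0.19 and -0.25 for all genes.

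**Figure D4:**
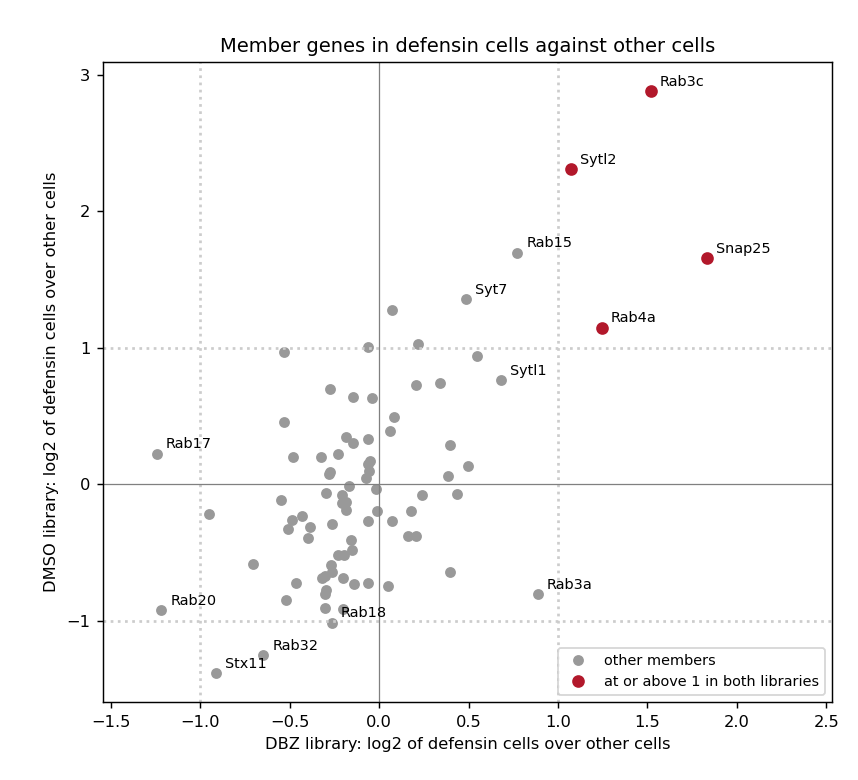
Defensin against other cells for the 84 members with a value in both libraries, as log2 of the ratio of levels in the DBZ library (x axis) and the DMSO library (y axis); dotted lines mark 1 and -1. The 4 red members lie past 1 in both libraries; Rab15 and Sytl1 lie above 0 in both.

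Rab3c had 1.59 with DBZ and 1.02 with DMSO in defensin cells against 0.522 and 0.0960 in other cells, differences of 1.52 and 2.88. It was seen in 50.5% of DBZ defensin cells and in 15 of the 30 DMSO ones, or 38.5% and 26.7% after thinning, at a greater depth than other cells. Snap25 had 0.378 and 0.155 against 0.0700 and 0.0151, differences of 1.83 and 1.66. Sytl2 had 0.354 and 0.406 against 0.142 and 0.0419, differences of 1.08 and 2.31, and Rab4a 0.154 and 0.209, differences of 1.25 and 1.15. Syt13 was at 0.128 in DBZ defensin cells against 0.00462. Rab15, of the recycling endosome, had 0.140 and 0.278 against 0.0612 and 0.0512, and Sytl1, a Rab27 partner, 0.0561 and 0.103 against 0.0162 and 0.0401. Lower on average were Stx11 (-0.91 and -1.38), Rab20 (-1.22 and -0.92), Rab32 (-0.65 and -1.25) and Stx12, an endosomal syntaxin (-0.52 and -0.84). Rab32 had 0 UMIs in DMSO defensin cells, which allow up to 0.0605, against 0.0690 in other cells. The 95% interval of its pooled log2 ratio reached 0.056 there, so a difference was not detectable in that library. Stx11 was seen in only 3.33% of DMSO defensin cells. Rab17, a Rab of epithelial transcytosis, was lower with DBZ by 1.25 on the log2 scale (level 0.0564 against 0.202) but not with DMSO, where its difference was 0.22.

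Defensin cells were not uniform in these genes. Those with a Chga or Chgb UMI (135 with DBZ, 11 with DMSO) had Rab3c at 2.30 and 2.05, and those without (73 and 19) at 0.283 and 0.432. Among cells without such a UMI, other cells had 0.326 and 0.0502, so the Rab3c difference was -0.18 with DBZ and 2.26 with DMSO. Snap25 stood at 0.479 and 0.423 in defensin cells with a granin UMI, and at 0.190 with DBZ and 0 UMIs with DMSO in those without. Rab15 went the other way, with 0.121 and 0.0325 with a granin UMI and 0.175 and 0.421 without. Sytl1 had 0.0214 against 0.120 with DBZ, while with DMSO it had 0 UMIs, which allow up to 0.183, against 0.162, so a difference was not detectable there. Sytl2 was alike on both sides, at 0.348 and 0.441 with and 0.366 and 0.385 without. Among cells without a granin UMI, the members higher in defensin than other cells in both libraries were Rab15, Sytl1 and Sytl2, against 0.646% of all genes.

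**Figure D5:**
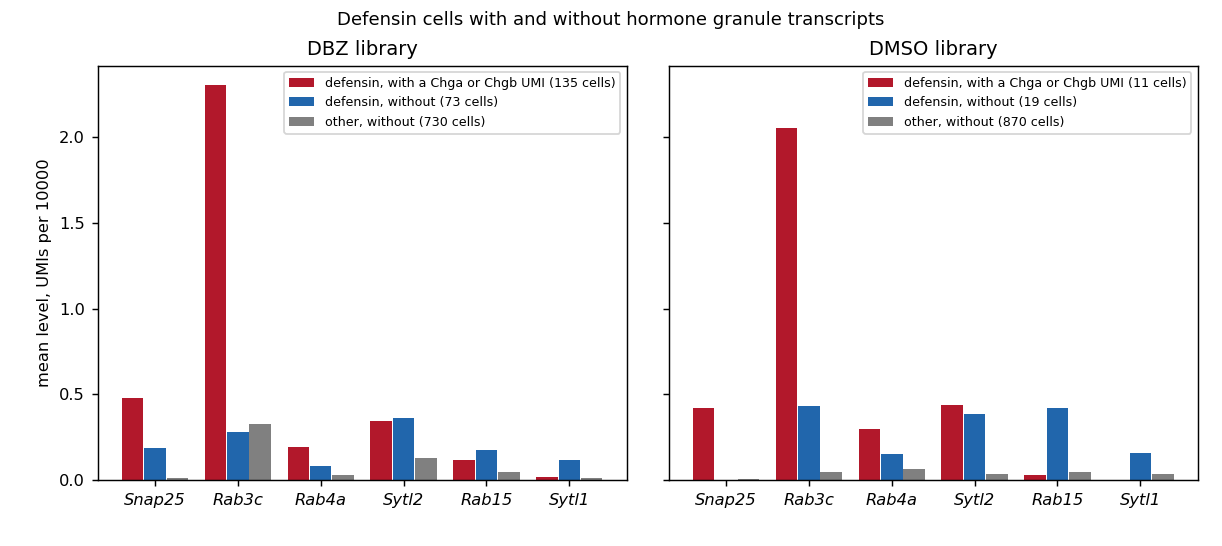
Mean level (bars, UMIs per 10000) of 6 members in defensin cells with and without a Chga or Chgb UMI and in other cells without one, for the DBZ library (left) and the DMSO library (right). Rab3c is at 2.30 and 2.05 in defensin cells with such a UMI and at 0.283 and 0.432 in those without, while Rab15 is higher in those without, as is Sytl1 in the DBZ library.

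The split went in part with which defensin gene was the more abundant. Of cells with more Defa24 than Defa22, 44 of 108 with DBZ and 0 of 14 with DMSO had a Chga or Chgb UMI. Cells in which Defa22 was at or above Defa24 (100 with DBZ, 16 with DMSO) had a median granin sum of 3.19 and 3.21 per 10000, and cells with more Defa24 (108 and 14) a median of 0 in both libraries. Rab3c was at 2.77 and 1.86 in the former and 0.501 and 0.0647 in the latter, Snap25 at 0.630 and 0.291 against 0.144 and 0 UMIs, and Stx1a at 0.487 and 0.448 against 0.177 and 0 UMIs. Rab15 was at 0.107 and 0.0223 in the former and 0.170 and 0.571 in the latter, and Sytl1 at 0.0297 and 0 UMIs against 0.0805 and 0.220. By level alone, Rab3c, Snap25 and Stx1a thus went with Defa22 and the granins, and Rab15 and Sytl1 with Defa24, in both libraries. No interval was computed for this split or for that by granin UMIs. The DBZ levels of Rab15, 0.107 and 0.170, lay close together, so a difference there is not shown. Rab3d stood at 1.05 and 1.36 against 0.892 and 0.692, and Vamp2 at 0.821 and 0.641 against 0.545 and 0.240. The DMSO values rest on 16 and 14 cells, where 0 UMIs allow up to 0.136 and 0.109 per 10000. Doublets were not called, and their part in this split was not tested.

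Other genes of the pathway, taken as lists by function, were measured beside the members. Between the libraries, 3 of 27 Rab regulators and carriers, 2 of 19 Rab effectors, 4 of 21 SNARE regulators, 1 of 12 other SNAREs, 1 of 9 exocyst subunits and 3 of 11 vesicle membrane proteins were higher with DBZ by at least 0.5 (against 11.1% of all genes), and 1 vesicle membrane protein was lower. Their medians ran from 0.11 for other SNAREs to 0.38 for the exocyst. Nsf, the ATPase that takes SNARE complexes apart after fusion, had 2.84 with DBZ and 0.797 with DMSO, a difference of 1.77 (1.98 in other cells). Slc18a1, which loads monoamines into granules, had 0.433 and 0.0795, a difference of 1.90. Cadps, a priming factor of dense granules, had 0.181 and 0.0304, and Syp, a vesicle membrane protein, 0.170 and 0.0477, differences of 1.52 and 1.17. Nsf thus differed more within other cells than over all cells, whereas Cadps differed by 0.65 there. Sypl, a widespread relative of Syp, was the lower one, at 7.41 and 13.0, a difference of -0.81. Rabgap1 (0.77) and Madd (0.57), which turn Rabs off and on, Rab11fip3 (0.67) and Bicd1 (0.55), partners of Rab11 and Rab6, Vti1b (0.57) and Exoc5 (0.53) also passed. The lowest of the remaining lists were Rab3il1 (-0.41), Tbc1d4 (-0.40), Exoc6 (-0.33), Rab11fip1 (-0.28), Use1 (-0.27) and Stxbp6 (-0.23), all short of the limit.

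Some partners of Snap25 and Rab3c were also higher in hormone cells. Cadps had 1.11 with DBZ and 0.873 with DMSO in hormone cells against 0.0432 and 0.00925 in other cells, differences of 3.64 and 3.96. Unc13a, which opens Stx1a, differed by 2.14 and 1.86, Syp by 3.20 and 4.48, and Rph3al, an effector of Rab3 and Rab27, by 1.55 and 3.45. Each of these 4 genes was past 1 in both libraries. In defensin cells Cadps differed by 2.47 and 2.42, Syp by 1.99 and 3.00 and Rph3al by 1.31 and 1.06. Of SNARE regulators, 4 of 22 were higher and 1 lower in hormone cells with DBZ, and 6 of 21 higher and 3 lower with DMSO. Of vesicle membrane proteins, 4 of 12 were higher and 1 lower, and 6 of 11 higher and 2 lower. Rab effectors had 4 of 19 higher and 2 lower with DBZ, and 2 of 19 higher and 5 lower with DMSO. Over all genes 7% and 17% were higher, and 7.39% and 16.5% lower. Nsf differed by -0.91 with DBZ and 1.26 with DMSO, and Sypl was lower in hormone cells, with differences of -1.02 and -2.59.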

How the data were processed

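The deposited file holds natural log values for every gene and cell of 1 DBZ and 1 DMSO library. Per the submitters' processing notes, the authors used Cell Ranger 2.1.1, Seurat and the build mm10. Not given in the sources used here were their cell and gene filters, annotation and normalization. In every cell exp(value) - 1 summed to 10000, and all 7553435 values above 0 were whole multiples of 1 step per cell (tolerance 0.01), which recovers UMIs. The unit is a normalized log, so no count model was run, and columns starting GSI and CTRL were read as DBZ and DMSO by meaning.

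Levels are means over cells of UMIs per 10000. Differences are log2 with 0.05 added, which understates low genes. Ratios of pooled UMIs have exact conditional 95% intervals, and shares Clopper-Pearson ones. Genes in at least 1% of cells and not listed at 0 were compared, over the whole table. The limits were 0.5 between libraries and 1 between classes. Shares were also computed after thinning to 5000 UMIs (0 cells were shallower). A class with 0 UMIs was given a floor of 3 counts. Doublets were not called. Python 3.11.15, numpy 2.4.6, scipy 1.17.1 and pandas 2.3.3 were used, and scripts were tested on simulated data. Coordinates are from GENCODE M21, in which 89 of 90 members had exactly 1 gene record, and promoters from RefSeq GRCm38.p6, both of the build the notes name.

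Named genes are the 8 highest and 8 lowest members between libraries among those in at least 10% of cells, the 8 highest and 4 lowest of each class by the mean of both libraries, the most abundant of each role, known genes of regulated secretion, and the 2 highest and 2 lowest of each pathway list. Rab31, Rab21, Rab14, Rab4b, Elavl4, Rab39b, Rab7b, Syt8, Syt9, Unc13a and Rph3al, the splits by granin UMIs, by Defa22 and Defa24 and by Neurog3, and the setting without granin UMIs were chosen after their values were seen. Members and lists were chosen with earlier results of these data known.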

Additional observations from a re-analysis of the deposited data

Results flagged for a closer look

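For 3 members the difference between DBZ and DMSO in mean level went opposite ways in 2 classes of cells. No interval was computed for these differences, and the contrast between classes was not tested. Stx1a was lower with DBZ in hormone cells, by a log2 difference of -1.58 from 15 UMIs in each library, and higher in other cells, by 0.79. Syt7 differed by -1.32 in hormone cells, from 7 UMIs in each library, and by 0.75 in other cells. Rab43 differed by -0.96 in defensin cells, from 15 and 6 UMIs, and by 0.54 in other cells. The DMSO hormone class had 13 cells and the DMSO defensin class 30.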

How the results depend on the processing

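No paired analysis was possible because each group has 1 library. Of 210 summary values recomputed under other settings, 168 stayed within 1.5 times of the value given or within its spread, and 42 moved. All 42 are counts of members past the limit. A median over the members counted as moved only past a wide allowance. This was the median, over single members, of 0.5 times the width of the counting interval. No median passed it, which says little about how stable the medians are. With a pseudocount of 0.01 (0.5), which by construction raises (lowers) differences of low genes, the members higher with DBZ were 21 (2) in all cells and 23 (2) in other cells, and those lower 1 and 3 at 0.01. Over all genes 19.3% (1.53%) and 20.4% (1.73%) were higher, and 8.57% and 8.24% lower. In hormone cells the higher counts were 15 (3) with DBZ and 6 at 0.5 with DMSO, and the lower counts 8 (0) and 18 (0). Over all genes the shares were 11.5% (1.15%) and 2.51% higher, and 18% (0.573%) and 29.8% (1.32%) lower. In defensin cells the counts were 9 (1) and 1 at 0.5, and 5 (0) and 11 (0). The same shares of all genes were 3.54% (0.444%) and 0.474%, and 5.79% (0.153%) and 19.6% (0.229%). The cause was not tested for the following, where parentheses give the share of all genes. Pooled UMIs gave 1 member lower with DBZ (5.61%) and 5 higher in DMSO defensin cells (1.9%). Thinning gave 17 higher with DBZ (12.7%), 6 lower in DBZ hormone cells (10.6%) and 12 lower in DMSO defensin cells (17.3%). Without the highest cell of each gene, 8 were lower in DBZ hormone cells (14.4%). In DMSO hormone cells 13 were then higher (6.95%) and 16 lower (32%), and in DMSO defensin cells 4 higher (1.3%) and 10 lower (16.6%). Centring on the median of all genes gave 1 (7.56%) and 3 (7.56%) lower with DBZ in all and other cells, and 1 lower in DMSO defensin cells (3.2%). Class limits of 5 and 50 gave 2 lower in other cells (5.1%), 1 lower in DBZ (1.03%) and 6 in DMSO defensin cells (8.94%). Limits of 20 and 200 gave 6 lower in DBZ hormone (10%) and 6 in DMSO defensin cells (8.43%). Hormone cells without a Neurog3 UMI gave 5 lower with DBZ (9.66%). Cells without a granin UMI gave 1 lower in other cells (5.37%) and 4 (2.49%) and 18 (13.9%) lower in defensin cells. Of 2862 values of single genes, 2753 changed by less than 0.5 times the width of their 95% counting interval. That width has no bound for a gene with 0 UMIs in a group. Of the 66 values past the limit, 51 fell under it at a pseudocount of 0.5, and at most 8 at any other setting. Of the 2862 values, 103 moved and 6 reversed: Rab36 in DMSO hormone cells (-0.11 without its highest cell, -0.22 at limits of 20 and 200), Sytl2 there (-0.93 at those limits), and, without granin UMIs, Rab3c in DBZ defensin cells (-0.18) and Snap25 (-0.18) and Syt5 (-1.23) in DMSO defensin cells. All but that of Rab3c rest on 0 UMIs, whose upper limit lies above the level in other cells, so no difference was detectable there. Of the 8 members higher in hormone cells of both libraries, 5 remained without the highest cell of each gene (Rab3c, Rab4a, Snap25, Syt7 and Vamp2), and Rab3c and Snap25 at every setting run. At a pseudocount of 0.5 only Rab3c and Snap25 remained. Rab3a and Rab3d dropped out after thinning, and Rab3a and Syt7 in hormone cells without a Neurog3 UMI. Rab4b dropped out at both other class limits, and Rab3a and Rab3d at limits of 20 and 200. Of the 4 higher in defensin cells of both, Rab3c remained at every setting except that without granin UMIs, where only Sytl2 did. At a pseudocount of 0.5 Rab3c alone remained, so Snap25, Rab4a and Sytl2 dropped out there. Rab4a also dropped out with pooled UMIs, after thinning, without the highest cell and at limits of 5 and 50. Sytl2 also dropped out after thinning and at both other class limits. Depth limits the hormone classes most, with 42 and 13 cells.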

Other observations

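Cells past both limits, which entered no comparison, numbered 27 with DBZ and 3 with DMSO, and their median depth was 8350 and 6463 UMIs. In the 27 DBZ cells Snap25 was at 2.16 per 10000, above the 1.61 of DBZ hormone cells, from 54 UMIs. Rab3c there was at 3.24, Rab3d at 1.71, Vamp2 at 0.887, Syt5 at 0.819 and Syt13 at 0.567. The summed level of all members averaged 51.6 per 10000 in these cells, against 48.6 in DBZ hormone cells and 36.5 in DBZ defensin cells. Their median defensin sum was 666 per 10000 and their median granin sum 19.2. Their Defa22 level was 203 and their Defa24 level 34.1, whereas DBZ defensin cells had 258 and 383.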
